A study of Ictidomys tridecemlineatus with 31 samples.

Results

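The 10 genes described here code for corticosteroid receptors, genes that respond to them, and the epithelial sodium channel, the end point of this hormone pathway in the distal kidney. They were chosen by symbol, as Nr3c1, Nr3c2, Hsd11b2, Sgk1, Tsc22d3, Fkbp5, Scnn1a, Scnn1b, Scnn1g, and Nedd4l, and all 10 were found among the 12863 genes of the table. RNA came from a fragment of kidney of each of 31 13-lined ground squirrels (Ictidomys tridecemlineatus), untreated animals of both sexes (17 females, 14 males) in 6 states that were assigned from body temperature and season. The active season was sampled as summer active (SA, 5 fattening animals) and as spring dark (SpD, 5 animals that had stopped using torpor but still lived in the dark hibernaculum). Hibernation was sampled as entrance into torpor with falling temperature (Ent, 5 animals), early in rewarming (EAr, 5 animals), later in rewarming (LAr, 6 animals), and interbout aroused at a warm body temperature (IBA, 5 animals). Ages are not given in the sources used here, and each animal contributed 1 library.

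Cortisol and related glucocorticoids act through the glucocorticoid receptor, and aldosterone acts through the mineralocorticoid receptor, which also binds cortisol. In principal cells of the collecting duct and in the late distal tubule, an enzyme inactivates cortisol and so leaves the mineralocorticoid receptor to aldosterone. The receptor then induces a kinase that restrains a ubiquitin ligase, and sodium channels that this ligase would have removed stay in the apical membrane, where they take up sodium. Several genes induced by either receptor serve in many tissues as a readout of steroid action.

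Each value is a batch-corrected regularized log (rlog) value, on a log2 scale, so that a difference of 1 is a doubling before the shrinkage that rlog applies to noisy genes. Values compare 1 gene between animals and do not rank genes against each other. Where states are said not to overlap, the share of all genes that separate in the same way was not counted. Such statements describe the animals and carry no test. Levels below are means ± SD of the animals of a state. Differences come from limma with terms for state, sex, and experiment, are given with their SE, and can depart from the difference of the means. For Tsc22d3 in EAr minus SpD, for example, the difference was -1.41 with the experiment term and -1.23 without it. A q is a Benjamini-Hochberg adjusted p over all 12863 genes. K113 (LAr) and K137 (SA) were left out of the fit, a choice taken from the study's methods. This leaves 29 animals, with 4 SA and 5 of every other state. K130 (SpD) was kept, and results that rest on it are given without it. Experiment 1 holds 3 animals each of IBA, Ent, and SpD, and experiment 2, with another library kit, holds all others, so SA, EAr, and LAr come from experiment 2 alone. The values had been corrected for experiment before deposit, so the fit cannot show what of that difference remained in those 3 states.

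Across the 6 states, calls among the 10 genes were few, but such counts in 10 genes cannot show whether the pathway as a whole is stable. None of the 10 genes passed the threshold of q under 0.001 used for this test, which 9.34% of all genes passed. At q under 0.05, which 46.1% of all genes passed, 3 did: Tsc22d3 (q = 0.003), Sgk1 (q = 0.0295), and Scnn1g (q = 0.033). The Scnn1g call was lost without K130, K3, or K6 and in all 31 animals. That of Sgk1 was lost without K104, K138, K139, or K7 and in experiment 2 alone. The Tsc22d3 call was lost with K113 and K137 restored and K130 left out. The share of members called was thus not above that of all genes at either threshold. Ordered by level, no gene had 2 neighboring states that differed at q under 0.05, so each order given below holds only between states that are farther apart.

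Both receptor genes were expressed in every animal. Nr3c1, the glucocorticoid receptor, was the flattest of the group, with means between 11.53 ± 0.12 in SpD (n = 5) and 11.66 ± 0.16 in SA (n = 4), and q = 0.661 across states. The interval of its difference between hibernation and the active season, 0.02 ± 0.05, ran from -0.08 to 0.12, so a seasonal change beyond that size lay outside the 95% interval. Nr3c2, the mineralocorticoid receptor, was lowest in SA.

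For Nr3c2 the 4 SA animals were at 10.57, 10.58, 10.58, and 10.59, while the 5 EAr animals were at 10.86, 10.89, 10.91, 11.00, and 11.00 and the 5 IBA animals at 10.36, 10.82, 10.99, 11.02, and 11.48. All EAr animals thus lay above all SA animals, whereas IBA spanned SA on both sides. The order of means was IBA 10.93 ± 0.41, EAr 10.93 ± 0.07, LAr 10.91 ± 0.09, SpD 10.83 ± 0.12, Ent 10.79 ± 0.19, and SA 10.58 ± 0.01. EAr exceeded SA by 0.36 ± 0.13 (q = 0.0485), the 1 difference of Nr3c2 among the 15 pairs of states to pass, and leaving out any 1 of 22 of the 29 animals ended that call. Of 13 other settings 12 kept the call, among them experiment 2 alone (0.36, q = 0.000161), which holds all SA and EAr animals. The fit without an intensity trend lost it (q = 0.0501). IBA minus SA was 0.40 ± 0.15 (q = 0.0522). With K113 and K137 restored, so that all 31 animals were fitted, IBA minus SA passed at 0.44 ± 0.14 (q = 0.0441) and hibernation minus active season at 0.20 ± 0.08 (q = 0.0476, against 0.19 ± 0.08 and q = 0.0707 in the 29).

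Hsd11b2 codes for the enzyme that inactivates cortisol and marks the aldosterone-responsive cells. Its means ran from 14.75 ± 0.20 in SA to 15.07 ± 0.13 in EAr, with q = 0.631 across states. No pair of states passed for this gene. The within-state spread was wide in IBA (14.21 to 15.43) and Ent (14.25 to 15.34) and narrow in LAr (14.99 to 15.16).

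**Figure D1:**
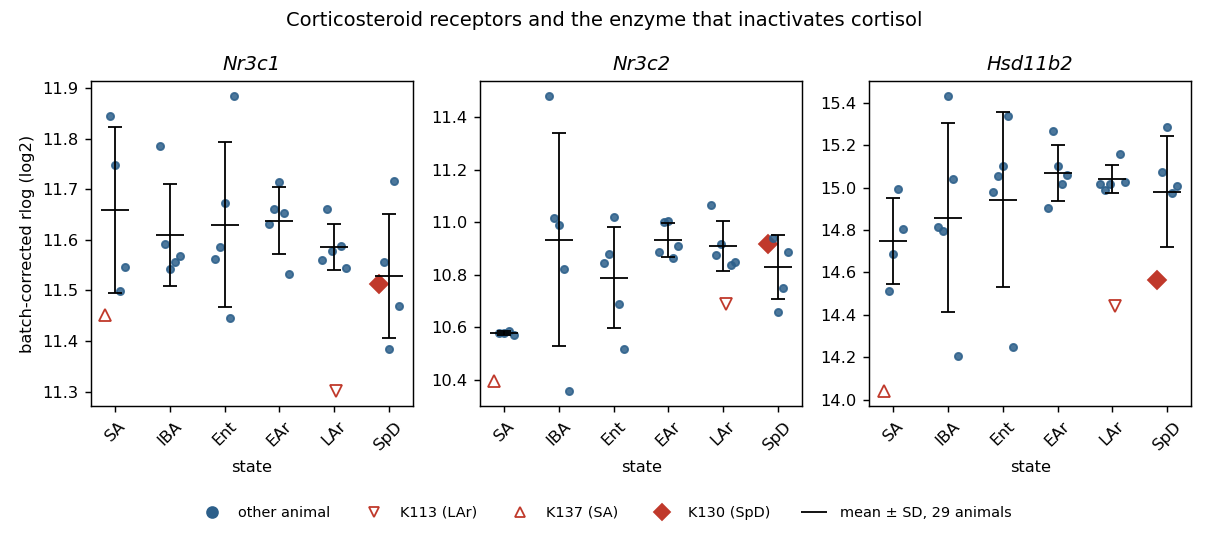
Batch-corrected rlog values (vertical axes, log2 scale, which do not start at 0) of Nr3c1, Nr3c2, and Hsd11b2 in each animal by state (horizontal axes), with black bars for the mean ± SD of the 29 animals. The 4 filled SA points of Nr3c2 lie within 10.57 to 10.59, below all 5 EAr points, while K113 and K137, drawn as open triangles, lie below the other animals of their state for all 3 genes.

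Of the 3 genes induced through these receptors, Tsc22d3 had the largest seasonal difference. Tsc22d3 codes for a leucine zipper protein that glucocorticoids and aldosterone induce and that carries part of the anti-inflammatory action of glucocorticoids. In SpD the animals were at 10.40, 10.42, 10.70, 10.88, and, for K130, 12.44, and in SA at 9.87, 10.56, 10.57, and 11.16. In IBA they were at 9.88, 10.01, 10.21, 10.29, and 10.50, and in Ent at 9.77, 9.99, 10.17, 10.28, and 10.42.

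The lowest Tsc22d3 values came from rewarming animals. In EAr they were 9.62, 9.64, 9.73, 9.76, and 9.92, and in LAr 9.51, 9.69, 9.71, 9.84, and 9.95. Neither rewarming group overlapped with SpD, and both overlapped with SA through the lowest SA animal. Means fell in the order SpD 10.97 ± 0.85, SA 10.54 ± 0.53, IBA 10.18 ± 0.24, Ent 10.12 ± 0.26, LAr 9.74 ± 0.17, and EAr 9.73 ± 0.12.

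Tsc22d3 was lower in hibernation than in the active season, by a log2 difference of -0.81 ± 0.17 (95% interval -1.15 to -0.47, q = 0.000627). Of all genes, 33.4% differed between the seasons at q under 0.05 and 16.8% were lower in hibernation, and of the 10 members 2 were lower (Tsc22d3 and Sgk1) and none higher. The season difference of Tsc22d3 kept its side of the threshold when each of the 29 animals was left out and in all 13 other settings, with values from -1.21 to -0.55 and a highest q of 0.0499. Without K130 it was -0.60 ± 0.10 (q = 0.000103), and in all 31 animals -0.93 ± 0.22 (q = 0.00249).

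Single pairs of Tsc22d3 followed the same order. EAr minus SpD was -1.41 ± 0.29 (q = 0.00216) and LAr minus SpD -1.41 ± 0.29 (q = 0.0022). Against SA, EAr differed by -0.80 ± 0.28 (q = 0.0359) and LAr by -0.80 ± 0.28 (q = 0.0327), and Ent minus SpD was -0.84 ± 0.26 (q = 0.0386). The calls against SA were lost without any 1 of 7 animals for EAr and of 6 for LAr, among them K139 (-0.60, q = 0.151, and -0.59, q = 0.157), and LAr minus SA also in all 31 animals (-0.92, q = 0.054). Without K130, EAr minus SpD was -0.74 ± 0.20 (q = 0.0235), LAr minus SpD -0.77 ± 0.19 (q = 0.0171), and Ent minus SpD no longer passed (-0.43 ± 0.16, q = 0.102). With K113 and K137 restored and K130 left out, none of these 3 passed, at -0.74 for EAr (q = 0.311), -0.52 for LAr (q = 0.485), and -0.43 for Ent (q = 0.467). SpD exceeded IBA by 0.79 ± 0.26 (q = 0.0481), a call that ended without K130 (0.38 ± 0.16, q = 0.128), as it did without any 1 of 21 of the 29 animals, K130 among them. Within experiment 1, which lacks K130, SpD exceeded IBA by 0.34, and within experiment 2, which holds it, by 1.47.

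Sgk1, the kinase that phosphorylates the ubiquitin ligase Nedd4l and so keeps sodium channels at the membrane, was highest in SA and lowest in IBA. The SA animals were at 12.27, 12.61, 12.99, and 13.14, and the IBA animals at 11.72, 12.08, 12.13, 12.25, and 12.40. The groups overlapped only through the lowest SA animal, K140. IBA minus SA was -0.70 ± 0.21 (95% interval -1.13 to -0.26, q = 0.0207), in a comparison in which 22.9% of all genes passed and Sgk1 was the 1 member of 10 to do so. This call held in all 31 animals (-0.80 ± 0.22, q = 0.0208) and without K130 (-0.71 ± 0.22, q = 0.0238), and was lost without K104 (-0.56, q = 0.102), K138 (-0.62, q = 0.0572), or K139 (-0.55, q = 0.0857). It was also lost in experiment 2 alone (-0.70, q = 0.0879), which holds all SA animals but only part of IBA. Animal weights (-0.64, q = 0.0504) and a fit of only these groups (-0.75, q = 0.182) lost it too.

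After IBA the level of Sgk1 stood higher at entrance, with Ent animals at 12.27, 12.57, 12.58, 12.66, and 12.67, but Ent minus IBA did not pass (0.44 ± 0.18, q = 0.108). In Ent minus IBA 13.1% of all genes passed and no member did. EAr animals fell into a low pair and a higher group, at 11.78, 11.79, 12.41, 12.41, and 12.59, and LAr animals were close together at 12.35, 12.38, 12.40, 12.47, and 12.64. EAr was below SA by a log2 difference of -0.56 ± 0.19 (q = 0.0351). That call was lost without K138, K139, K156, or K157, at values from -0.48 to -0.42 (q from 0.1 to 0.145), and in experiment 2 alone (-0.56, q = 0.0503). The SpD animals were at 12.10, 12.64, 12.68, 12.79, and 13.08, and SpD minus IBA was 0.54 ± 0.18 (q = 0.0507). Over the season Sgk1 was lower in hibernation by a log2 difference of -0.38 ± 0.11 (q = 0.014), which was lost without K139 (-0.31, q = 0.0537) and in experiment 2 alone (-0.23, q = 0.279).

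A second row of the table carries the symbol Sgk1 at a much lower level, annotated by sequence similarity to a locus that the RefSeq gene table lists as a pseudogene. It followed the first row closely (Pearson's r = 0.913 over the 29 animals), with 8.58 ± 0.46 in SA and 7.92 ± 0.14 in IBA. How the authors' quantification split reads between these similar sequences is not known, so the level of Sgk1 itself is uncertain to that extent.

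Fkbp5 codes for a co-chaperone that glucocorticoids induce and that in turn lowers the affinity of the glucocorticoid receptor for the hormone. It did not pass in any pair of states (q = 0.432 across states). Its spread within states was wide, with SA animals from 11.92 to 13.33 and SpD animals from 11.29 to 12.85. The season difference was -0.30 ± 0.20 (95% interval -0.71 to 0.11, q = 0.247), so these 29 animals did not resolve a change of the size seen for Sgk1.

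**Figure D2:**
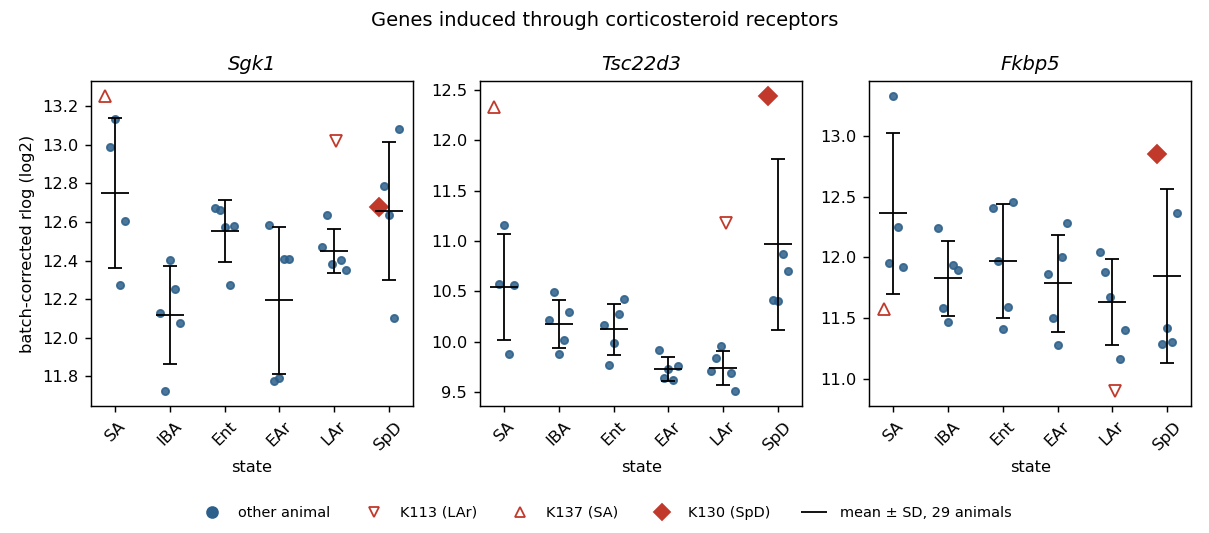
Batch-corrected rlog values (vertical axes, log2 scale, which do not start at 0) of Sgk1, Tsc22d3, and Fkbp5 in each animal by state (horizontal axes), with black bars for the mean ± SD of the 29 animals. Tsc22d3 falls from SpD and SA to EAr and LAr, at 9.51 to 9.95, and K130, K137, and K113 lie far above the other animals of their states.

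The epithelial sodium channel is built of an alpha (Scnn1a), a beta (Scnn1b), and a gamma (Scnn1g) subunit, and all 3 had their highest mean in SpD. For Scnn1g the SpD animals were at 11.90, 11.96, 12.00, 12.08, and, for K130, 12.58. The IBA animals were at 10.58, 11.41, 11.59, 11.60, and 11.86, so every SpD animal lay above every IBA animal. The other states lay between 10.86 and 12.06, with means of 11.48 ± 0.43 in Ent, 11.52 ± 0.16 in EAr, 11.56 ± 0.15 in SA, and 11.73 ± 0.24 in LAr.

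SpD exceeded IBA for Scnn1g by 0.70 ± 0.19 (95% interval 0.30 to 1.10, q = 0.0203) and for Scnn1a by 0.48 ± 0.15 (0.17 to 0.80, q = 0.0404). For Scnn1b the difference was 0.34 ± 0.18 (-0.02 to 0.71, q = 0.215) and did not pass. In this comparison 11.9% of all genes passed, 6.48% as higher in SpD, and of the 10 members 3 were higher (Scnn1g, Scnn1a, and Tsc22d3) and none lower. The median difference of the 10 members was 0.23, and that of all genes -0.0079.

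None of these calls held without K130, when Scnn1g differed by 0.60 ± 0.21 (q = 0.0523), Scnn1a by 0.43 ± 0.16 (q = 0.0844), and Scnn1b by 0.32 ± 0.19 (q = 0.284). The remaining 4 SpD animals still lay above all 5 IBA animals for Scnn1g. The Scnn1g call was also lost without K7, the lowest IBA animal (0.46, q = 0.0706), and that of Scnn1a in all 31 animals (q = 0.0588) and without any 1 of 7 animals, K130 and K7 (0.37, q = 0.136) among them. Within experiment 1 (3 animals of each state) SpD exceeded IBA by 0.67 for Scnn1g, 0.55 for Scnn1a, and 0.44 for Scnn1b. Within experiment 2 (2 animals of each state) the differences were 0.74, 0.37, and 0.19. K7 is among the IBA animals of experiment 1 and K130 among the SpD animals of experiment 2, so neither experiment is free of both.

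For Scnn1a the SpD animals were at 13.33, 13.39, 13.53, 13.55, and 13.77 and the IBA animals at 12.58, 12.95, 13.05, 13.19, and 13.41, with overlap in the highest IBA animal alone. The SA animals were at 12.97, 12.98, 12.99, and 13.24, below all of SpD. SA minus SpD was -0.54 ± 0.18 for Scnn1a (q = 0.053), -0.46 ± 0.21 for Scnn1b (q = 0.14), and -0.66 ± 0.23 for Scnn1g (q = 0.063). The SA animals lay below all SpD animals for each of these subunits, a separation whose share over all genes was not counted. No member passed in that comparison, in which 10.5% of all genes did. The 3 subunits thus came out lower in SA than in SpD without reaching the threshold.

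Against the cold states, Scnn1g was lower than in SpD by a log2 difference of -0.62 ± 0.19 in Ent (q = 0.0404) and -0.70 ± 0.22 in EAr (q = 0.0282), while LAr minus SpD was -0.47 ± 0.22 and did not pass (q = 0.134). Without K130, Ent and EAr minus SpD stood at -0.53 (q = 0.109) and -0.54 (q = 0.187), so neither passed. Scnn1b varied little within the rewarming states and SpD, with 10.92 ± 0.09 in EAr, 11.08 ± 0.07 in LAr, and 11.23 ± 0.13 in SpD, against 10.88 ± 0.42 in IBA and 10.84 ± 0.49 in Ent. The season difference was -0.12 ± 0.10 for Scnn1a, -0.10 ± 0.11 for Scnn1b, and -0.29 ± 0.12 for Scnn1g (q = 0.0702), and none passed.

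Nedd4l, the ubiquitin ligase that tags the sodium channel for removal and that Sgk1 restrains, stayed near 1 level. Means ran from 12.11 ± 0.13 in Ent to 12.30 ± 0.05 in EAr (q = 0.352 across states), and SpD minus IBA was -0.01 ± 0.08 (95% interval -0.17 to 0.16). EAr had the tightest values of this gene, 12.25 to 12.37.

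**Figure D3:**
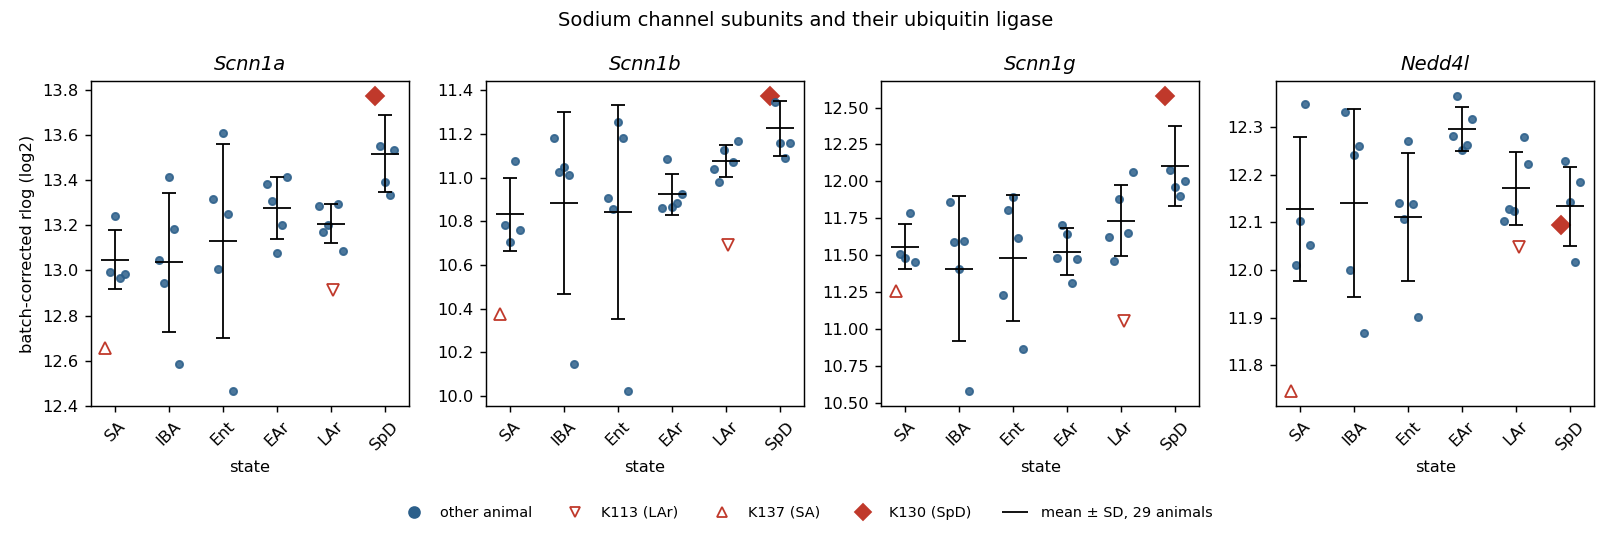
Batch-corrected rlog values (vertical axes, log2 scale, which do not start at 0) of the sodium channel subunits Scnn1a, Scnn1b, and Scnn1g and of Nedd4l in each animal by state (horizontal axes), with black bars for the mean ± SD of the 29 animals. For Scnn1g all 5 SpD animals, from 11.90 to 12.58, lie above all 5 IBA animals, and the means of Nedd4l stay between 12.11 and 12.30.

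The steps of the torpor-arousal cycle changed none of the 10 genes past the threshold. EAr minus Ent, which spans the torpor bout, passed for 0.257% of all genes, LAr minus EAr for 0.575%, and IBA minus LAr for 18.0%, and no member was among them. IBA minus the mean of Ent, EAr, and LAr, a comparison of warm with cold animals that 26.3% of all genes passed, had no member either; the largest difference was that of Tsc22d3 at 0.43 ± 0.23 (q = 0.17). At an unadjusted p under 0.05, no member passed in LAr minus EAr, and 1 did in each of EAr minus Ent and IBA minus LAr.

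Sex made no difference to these genes that the test could find. The female minus male difference lay between -0.12 (Scnn1g) and 0.07 (Hsd11b2), and no q was below 0.897, with 0.218% of all genes passing. The test of whether the seasonal difference itself differed between females and males passed for 0% of all genes and for no member (lowest q of a member 0.994). The largest such difference was 0.62 ± 0.39 for Fkbp5.

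**Figure D4:**
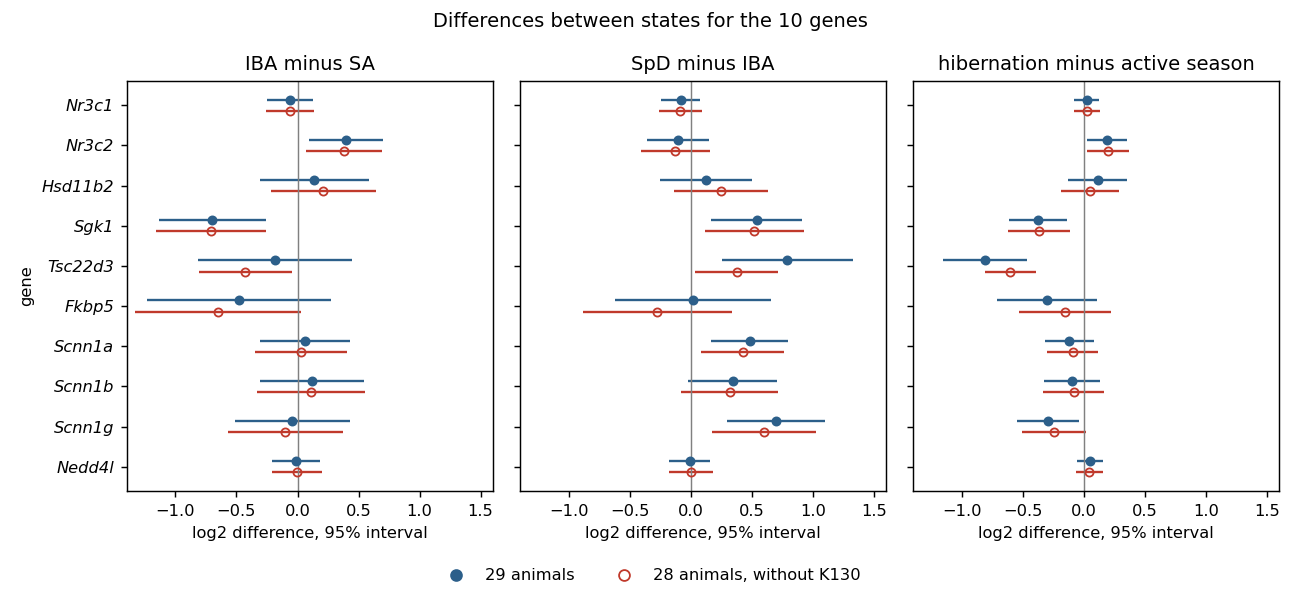
Log2 differences with 95% intervals (horizontal axes) for the 10 genes (vertical axis) in IBA minus SA, SpD minus IBA, and hibernation minus active season, with filled points for the 29 animals and open points for 28 animals without K130. Tsc22d3 lies below 0 for the season in both sets, at -0.81 and -0.60, and the 3 channel subunits lie above 0 in SpD minus IBA in both sets.

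K113, K137, and K130 stood apart from their states for most of these genes, in 2 different ways. K113 and K137 were each above all others of their state for Sgk1 and Tsc22d3 and below all others for the remaining 8 genes. For Tsc22d3, K113 was at 11.18 against 9.51 to 9.95 in the other LAr animals, and K137 at 12.33 against 9.87 to 11.16 in the other SA animals. Of all genes, 1.81% lay at least as far above the others in K113 and 1.21% in K137 as Tsc22d3 did. For Sgk1, K113 was at 13.02 against 12.35 to 12.64, and K137 at 13.26 against 12.27 to 13.14. Hsd11b2 was low in both, at 14.44 against 14.99 to 15.16 and at 14.04 against 14.51 to 14.99. The channel subunits were low as well, as for Scnn1g at 11.05 against 11.46 to 12.06 in K113 and at 11.26 against 11.45 to 11.78 in K137.

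K130 shared the high Tsc22d3, at 12.44 against 10.40 to 10.88, and the low Hsd11b2, at 14.57 against 14.98 to 15.29. It differed in being above the other SpD animals for Fkbp5 (12.85 against 11.29 to 12.36) and for all 3 channel subunits, where K113 and K137 were below theirs. For Sgk1, Nr3c1, Nr3c2, and Nedd4l it lay within the range of the others. In all, 5 genes were above, 1 below, and 4 within. Only 0.101% of all genes lay at least as far above the other SpD animals in K130 as Tsc22d3 did.

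A place outside the range of the others was common in these 3 animals, at 72.9% of all genes in K113, 63.4% in K137, and 61.1% in K130. The counts of 10, 10, and 6 of the 10 members outside the range are to be read against these shares. Summed marker genes of kidney cell types, none of which was at 0 in any animal, stood apart in the same animals for most lists, though macrophage markers were within range in all 3 and thick ascending limb markers in K113 and K137. The mean of 4 inner medulla markers was 13.26 in K113 (10.64 to 10.86 in the others of its state), 13.98 in K137 (10.73 to 12.19), and 12.92 in K130 (11.34 to 12.37), and the principal cell mean was also above all others of the state in each. The mean of 5 proximal tubule markers was lower than in all others of the state in each, at 13.60, 14.16, and 13.40. The mean of 4 connecting and distal convoluted tubule markers, from a segment that also holds the channel, was likewise below all others, at 10.38 in K113 (10.90 to 11.44), 10.52 in K137 (11.30 to 11.74), and 9.48 in K130 (11.28 to 12.10). The part of these shifts in the values of the 10 genes was not tested.

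**Figure D5:**
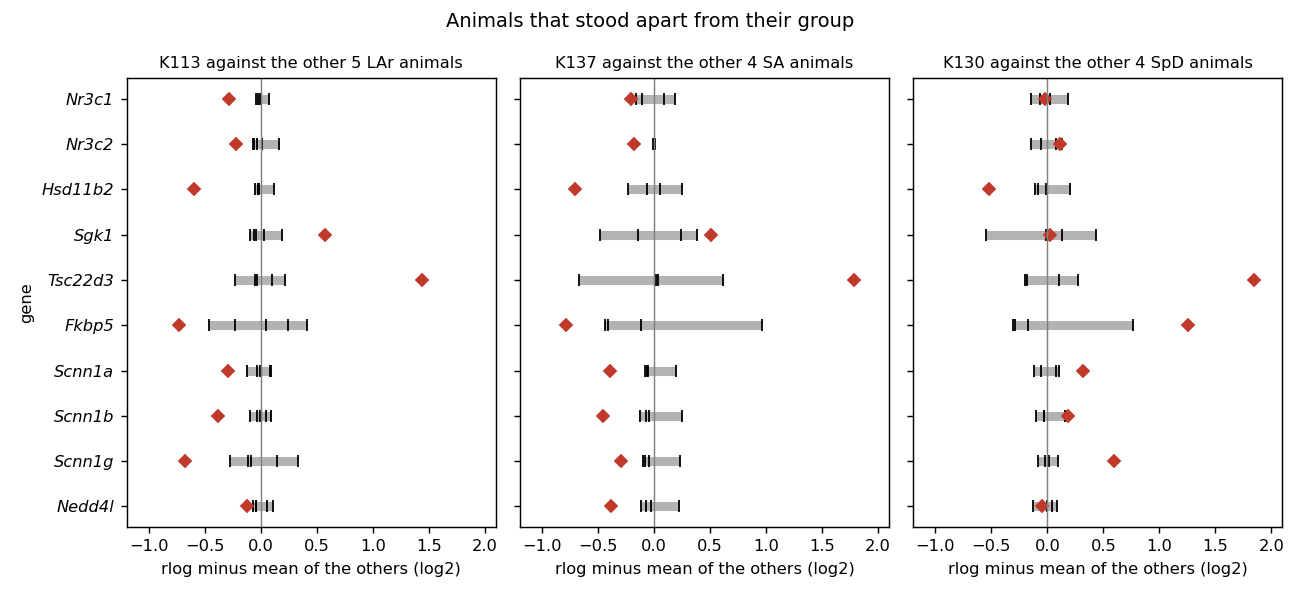
Difference of K113, K137, and K130 (red diamonds) from the mean of the other animals of their state (horizontal axes, log2) for each of the 10 genes (vertical axis), with grey bars for the range of the others and black ticks for each of them. Tsc22d3 lies to the right of all others in each panel, whereas the channel subunits lie to the left in K113 and K137 and to the right in K130.

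A single animal also set the lowest values in each of IBA and Ent, a pattern noticed after the values were seen. K7 (IBA) had the lowest value of its 5 animals for Nr3c2 (10.36), Hsd11b2 (14.21), Scnn1a (12.58), Scnn1b (10.14), Scnn1g (10.58), and Nedd4l (11.87). K8 (Ent) had the lowest of its 5 for the same 6 genes, at 10.52, 14.25, 12.46, 10.02, 10.86, and 11.90. Neither was lowest for Sgk1 or Tsc22d3. The share of all genes for which K7 or K8 was the lowest of its state was not counted, so these 6 are not shown to be a trait of this group. The principal cell marker mean was the lowest of the state in both, at 9.85 in K7 and 10.05 in K8. So were the means of connecting and distal convoluted tubule markers (10.38 and 10.42) and of intercalated cell markers (10.29 and 10.31), and in K8 that of proximal tubule markers (13.97). K7 had the highest macrophage mean (9.48) and the highest fibroblast mean (9.51) of IBA, whereas K8 had the lowest macrophage mean of Ent (8.26). The part of these marker means in the values above was not tested.

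In whole-kidney RNA, fewer cells of a type and less RNA per cell cannot be told apart, and the channel subunits belong to few cell types. The mean of 5 principal cell markers (Aqp2, Aqp3, Avpr2, Gata3, and Tfcp2l1) ran from 10.57 to 11.56 in SpD and from 9.85 to 10.86 in IBA, and 0 of the 5 passed in SpD minus IBA by limma (q under 0.05), with a median difference of 0.52. Between seasons 3 of the 5 were lower in hibernation (median -0.51), as were 3 of 4 endothelial markers (median -0.30), where 16.8% of all genes were lower. The part of these markers in the season difference of Tsc22d3 was not tested beyond the fit with the principal cell mean. Within states, Scnn1g rose by 0.87 ± 0.15 for each unit of that mean (q = 0.00115, where 8.78% of all genes passed), Scnn1b by 0.58 ± 0.17 (q = 0.037), and Nr3c2 by 0.40 ± 0.12 (q = 0.0419). Without K130 the slope of Scnn1g was 0.98 ± 0.17 (q = 0.00547), and those of Scnn1b (q = 0.0521) and Nr3c2 (q = 0.066) no longer passed. With the principal cell mean as a further term, SpD minus IBA was 0.25 for Scnn1g (q = 0.284), 0.35 for Scnn1a (q = 0.202), and 0.49 for Tsc22d3 (q = 0.287). In that fit Scnn1g also no longer differed past the threshold between SpD and Ent (-0.083, q = 0.868) or EAr (-0.071, q = 0.874), nor did any called pair of Tsc22d3, at -0.98 for EAr minus SpD (q = 0.113), -0.97 for LAr minus SpD (q = 0.155), -0.48 for Ent minus SpD (q = 0.496), -0.63 for EAr minus SA (q = 0.0942), and -0.61 for LAr minus SA (q = 0.101), whereas Nr3c2 in EAr minus SA kept its call (0.48, q = 0.00451).

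The mean of 5 proximal tubule markers moved with the comparison of IBA and SA, at 13.63 to 14.54 in IBA and 15.01 to 15.34 in SA, and 4 of the 5 were lower in IBA. In that comparison 22.9% of all genes differed in either direction. Of 4 connecting and distal convoluted tubule markers 2 were lower in IBA (median -0.87), with means of 10.86 ± 0.39 in IBA and 11.53 ± 0.18 in SA, and their part in the difference of Sgk1 was not tested. With the proximal tubule mean as a further term, Sgk1 differed by -0.35 in IBA minus SA (q = 0.346), by -0.44 in EAr minus SA (q = 0.075), and by -0.25 for the season (q = 0.0989). Tsc22d3 fell as the proximal tubule mean rose (slope -0.76 ± 0.14, q = 0.000323, where 27.6% of all genes passed), a slope that did not pass without K130 (-0.37 ± 0.15, q = 0.0901). It rose with the inner medulla mean (slope 0.46 ± 0.13, q = 0.018, where 13.7% of all genes passed), a slope that likewise did not pass without K130 (0.23 ± 0.09, q = 0.204). Hsd11b2 rose with the proximal tubule mean (0.39 ± 0.12, q = 0.0197), but not past the threshold without K130 (q = 0.0984). Sgk1 passed for that mean only without K130 (0.58 ± 0.16, q = 0.0178), as did Scnn1a (0.43 ± 0.14, q = 0.04) and Nedd4l (0.25 ± 0.07, q = 0.0263), where 17.1% of all genes passed. The season difference of Tsc22d3 was -1.14 with the proximal tubule mean in the fit (q = 7.68e-07) and -0.55 with the principal cell mean (q = 0.0499).

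Across the 29 animals, which share states and experiments, the genes most like each member in Pearson's r were mostly outside the pathway. The exception was the channel itself, where Scnn1b and Scnn1g were each other's closest gene (r = 0.867) and Scnn1b came after Fto and Scap for Scnn1a (r = 0.794). In the RefSeq gene table of another assembly of this species, Scnn1b and Scnn1g are also next to each other among protein-coding genes. Tsc22d3 was most like Inpp1, an inositol phosphatase (r = 0.967, and 0.932 without K130), Col8a2, a collagen chain (0.942), and Rapgef5, an exchange factor for Rap (0.941). Hsd11b2 was most like Kcnq1, a potassium channel (0.868), Lynx1 (0.866), and Ilvbl (0.834), and Scnn1a most like Fto (0.827) and Scap (0.804).

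For the others, Nr3c1 was most like PPP1R2 (0.744), Ibtk (0.732), and Pum2 (0.727), and Nr3c2 most like Carm1, an arginine methyltransferase that acts as a nuclear receptor coactivator (0.826), Gprasp2 (0.799), and Ankrd17 (0.796). Sgk1, after its own second row, was like Acat1 (0.789), and Fkbp5 most like Kmt5b (0.791), Pnpla8 (0.774), and Larp4 (0.763). Scnn1g, after Scnn1b, followed B4galnt2 (0.825) and Fbxo44 (0.817), and Nedd4l followed Nomo2 (0.815), Ddb1 (0.784), and SNRNP200 (0.779). No test was made of these likenesses.

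Beyond the 10 genes, 23 of 24 other genes known to be induced by glucocorticoids were in the table. Of these, 5 passed across states at q under 0.001 and 16 at q under 0.05, where 9.34% and 46.1% of all genes passed, with 11 at q under 0.05 in all 31 animals. Between seasons 10 were lower in hibernation and none higher, where 16.8% of all genes were lower, with a median difference of -0.12 against 0.00024 for all genes. In all 31 animals 9 passed for the season, and without K130 11 did. Tsc22d3 and Sgk1 moved in the direction of these 10.

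The 4 of lowest q in that list were Ddit4, Rasd1, Nfkbia, and Dusp1. Ddit4, which restrains mTOR complex signaling, fell by 0.66 ± 0.08 on the log2 scale in hibernation (q = 2.02e-06) and was lowest in EAr at 8.89 ± 0.17. Rasd1, a small GTPase, was likewise lowest in EAr at 7.93 ± 0.11, fell by 0.60 ± 0.11 in hibernation (q = 0.000169), and was higher by 1.11 ± 0.17 in LAr than in EAr (q = 0.000321). Nfkbia, the inhibitor of NF-kappa-B, and Dusp1, a phosphatase that switches off MAP kinases, did not pass for the season and were higher in LAr than in EAr by 0.79 ± 0.10 (q = 1.18e-05) and 1.47 ± 0.22 (q = 0.000321). Tsc22d3, by contrast, differed by 0.0014 ± 0.26 between LAr and EAr (q = 1). Tat, the liver and kidney enzyme of tyrosine breakdown, was singled out after its values were seen: it was at 11.09 ± 1.69 in SA and 6.92 ± 0.57 in IBA, a fitted difference of -4.66 ± 0.65 (q = 3.69e-05).

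All 13 chaperones that hold steroid receptors ready for hormone were in the table. Of these, 4 passed across states at q under 0.001, where 9.34% of all genes passed. In IBA 5 were higher than in the cold states and none lower, where 26.3% of all genes differed in either direction. For the season 4 were lower in hibernation and none higher, where 16.8% of all genes were lower. Stip1, which hands receptors from one chaperone to the next, was higher in IBA than in the cold states by 0.45 ± 0.07 (q = 0.000135), and Hsp90aa1, the inducible HSP90, by 0.26 ± 0.06 (q = 0.00393). Hspa8, the constitutive HSP70, was lower in IBA than in SA by a log2 difference of -0.59 ± 0.12 (q = 0.00146), and Dnaja1, an HSP40 co-chaperone, by -0.25 ± 0.09 (q = 0.0495).

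Among 11 receptor coregulators, all in the table, 3 passed across states at q under 0.05, below the 46.1% of all genes, and 1 at q under 0.001. Without K130 the count at q under 0.05 was 1 and in all 31 animals 2. The gene at q under 0.001 was Ncoa3, a steroid receptor coactivator, which was higher in IBA than in the cold states by 0.41 ± 0.08 (q = 0.000825). Of 7 genes of steroid access and metabolism, 4 were in the table, and none passed across states at q under 0.001. All 4 (H6pd, Srd5a1, Srd5a3, and Abcb1) were higher in hibernation, where 33.4% of all genes differed in either direction. The count was 3 without K130 and 3 in all 31 animals. Of the 24 regulators of the sodium channel, 23 were in the table, 10 passed across states at q under 0.05 (3 in all 31 animals and 7 without K130), a share near the 46.1% of all genes, and Rictor, the defining subunit of the complex that activates Sgk1, was the 1 at q under 0.001. Rictor was higher in IBA than in LAr by 0.54 ± 0.11 (q = 0.0019), and none of the 23 passed in SpD minus IBA by limma (q under 0.05), against 3 without K130.

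The 8 genes through which principal cells return sodium to the blood and let potassium out were all in the table, and none passed across states at q under 0.001. In SpD minus IBA 2 of them were higher, the potassium channels Kcnj1 (0.73 ± 0.20, q = 0.0172) and Kcnma1 (0.54 ± 0.15, q = 0.0183), named because they were the full count, where 6.48% of all genes were higher. Kcnj1 is also a gene of the thick ascending limb, and the mean of 3 markers of that segment was 12.96 ± 0.48 in SpD and 12.39 ± 0.36 in IBA, with 0 of the 3 past q under 0.05 by limma. Without K130 1 of the 8 passed. These lists, like the 10 genes, were drawn up with earlier results of these data known, so their counts are descriptions of the data and carry no test of the lists.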

How the data were processed

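RNA from a kidney fragment of each of 31 animals was sequenced from poly(A) selected, strand-specific libraries made in 2 experiments with different kits. The authors trimmed and aligned the reads, removed mitochondrial reads, quantified transcripts with Salmon against the species' genome annotation, and deposited rlog values on a log2 scale (DESeq2) after limma's batch correction for experiment. Read depth is unknown, because the table holds no counts. Each symbol was matched without regard to case, taking the row of highest mean where several share it.

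Here limma 3.58.1 in R 4.3.3 fitted state, sex, and experiment to all 12863 genes in 29 animals, with an intensity trend and no low-value filter. Contrasts were called at q under 0.05 and the test across states at q under 0.001. The scripts were tested on simulated data. Members and gene lists were chosen with earlier results of these data known. From each list, genes passing across states were named, at most 4 of lowest q, and for each member the 3 most like it by Pearson's r, of which some are not reported here. Alternatives changed the animals, covariates, prior variance, weights, filter, scaling, and threshold. Slopes on marker means were added after seeing the data. p-values rest on animals as replicates. Because the deposited values were already batch-corrected, the degrees of freedom spent there are not in the fit. No genome of the authors' build was used, so neither coordinates nor sequences are given.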

Additional observations from a re-analysis of the deposited data

Results flagged for a closer look

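Of 80 sets of 4 to 6 animals (each of the 10 genes in each state over the 29 animals, and in LAr and SA again with K113 and K137), 13 had an animal far from the rest by Dixon's test at the 95% level. At 1 in 20 about 4 would be flagged, but the sets are not independent, because the same animals recur across genes. The sets with K113 and K137 also add animals that the study had already left out as outliers. The share of flagged sets over all genes was not counted, so 13 against 4 is no test of these genes.

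K113, K137, and K130 account for 6. K113 stood apart in LAr for Tsc22d3 (11.18, others 9.51 to 9.95), Hsd11b2 (14.44, others 14.99 to 15.16), and Nr3c1 (11.30, others 11.54 to 11.66). K137 stood apart in SA for Nr3c2 (10.39, others 10.57 to 10.59). K130 stood apart in SpD for Tsc22d3 (12.44, others 10.40 to 10.88) and for Scnn1g (12.58, others 11.90 to 12.08).

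The others came from animals that stood apart for 1 gene each. In IBA, K1 was high for Nr3c1 (11.79, others 11.54 to 11.59) and K7 low for Scnn1b (10.14, others 11.01 to 11.18). In SA, K139 was high for Scnn1a (13.24, others 12.97 to 12.99) and K140 for Scnn1g (11.78, others 11.45 to 11.51). K5 was low for Sgk1 in Ent (12.27, others 12.57 to 12.67), K115 high for Hsd11b2 in LAr (15.16, others 14.99 to 15.03), and K156 high for Scnn1b in EAr (11.08, others 10.86 to 10.92).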

How the results depend on the processing

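No called difference changed direction in any setting run for it, 29 of which leave out 1 animal each; uncalled ones were not followed, and Fkbp5 in SpD minus IBA went from 0.019 to -0.28 without K130. Of the members called across states (0 with the main settings), 1 was called in experiment 2 only, 1 with the proximal tubule mean as a covariate, 1 with animal weights, and 3 at q under 0.05. Of the calls in the 7 sequential pairs of states (4), 1 was left in 28 animals, 1 in 30, 1 with only the groups compared, and 0 at q under 0.001, while experiment 2 only and a fit without sex gave 7 each. Leaving out 1 animal gave 1 to 7 calls, with 1 without K104 or K130 and 7 without K5 or K84. Over all 15 pairs (13) there were 7 calls in 28 animals, 6 in 30, 8 with the principal cell mean, 22 in experiment 2 only, and 0 at q under 0.001, and 7 to 16 with 1 animal left out (7 without K130 or K138). For the season (2) there were 4 in experiment 2 only, 1 at q under 0.001, and 1 to 3 with 1 animal left out (1 without K139). For IBA against the cold states (0) leaving out 1 animal gave 0 to 1 (1 without K171). The causes of these changes were not tested. Sets with fewer animals gave lower counts in some cases and higher counts in others. The sex by season test was not run without sex or experiment, with other prior variances, weights, or marker covariates. No paired analysis was possible because each animal contributed 1 library in 1 state. Rlog shrinks differences of genes with few reads, and the depth behind each value is unknown.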
